A study of Mus musculus with 6 samples.

Results

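Toll-like receptors and their adaptors were examined in microglia of mice with enzymatically dead LACTB (ED) and of wild-type mice (WT). The 10 genes described here, of 15954 in the table, were chosen by name: the receptors Tlr1, Tlr2, Tlr3, Tlr4, Tlr6, Tlr7, Tlr9 and Tlr13, the co-receptor Cd14 and the adaptor Myd88. All 10 were found in the table. The rule uses no threshold on a measured value, but the names were chosen with earlier results of these data known.

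LACTB is a serine enzyme of the mitochondrion. ED mice were homozygous for the S162I knock-in, which replaces the catalytic serine, and WT mice carried the unchanged enzyme. The knock-in was made in C57BL/6J embryonic stem cells. Brains of mice 3 months old were dissociated with enzymes and cells carrying CD11b were collected on magnetic beads, a gate that also takes monocytes, neutrophils and other macrophages of the brain. Polyadenylated RNA was sequenced from 3 ED and 3 WT mice, with 1 library per mouse. Since the knock-in changes an amino acid, the level of Lactb RNA does not check the genotype labels.

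Toll-like receptors recognise molecules of microbes and of damaged cells. TLR1, TLR2, TLR4 and TLR6 sit at the cell surface and bind lipids and lipoproteins. TLR3, TLR7, TLR9 and TLR13 act in endosomes and bind nucleic acids. All of these receptors except TLR3 signal through MyD88, which assembles a complex of IRAK kinases. TLR3 signals through TRIF, and TLR4 uses both routes. In the brain, microglia are the main cells that carry these receptors.

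None of the 10 genes differed between ED and WT microglia by more than the spread between mice. Fitted log2 fold changes of ED over WT lay between −0.11 for Tlr9 and 0.076 for Tlr1, 6 of them above 0 and 4 below, with a median of 0.0096. Over all 15954 genes the median was −0.0033. In every one of the 10 genes the values of ED and WT mice overlapped, while 915 genes, or 5.74% of the table, had no overlap between the genotypes (2.32% higher and 3.42% lower in ED). No gene of the table passed limma at an adjusted p of 0.05 (0%, 0 of 15954), and 290 genes (1.82%, with 0.602% higher and 1.22% lower in ED) had an unadjusted p under 0.05, none of them among the 10. The smallest unadjusted p of the 10 was 0.444, for Tlr13, and adjusted p was 1.00 for each (limma, n = 3 per genotype). The plot of fold changes shows these estimates with their intervals.

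**Figure D1:**
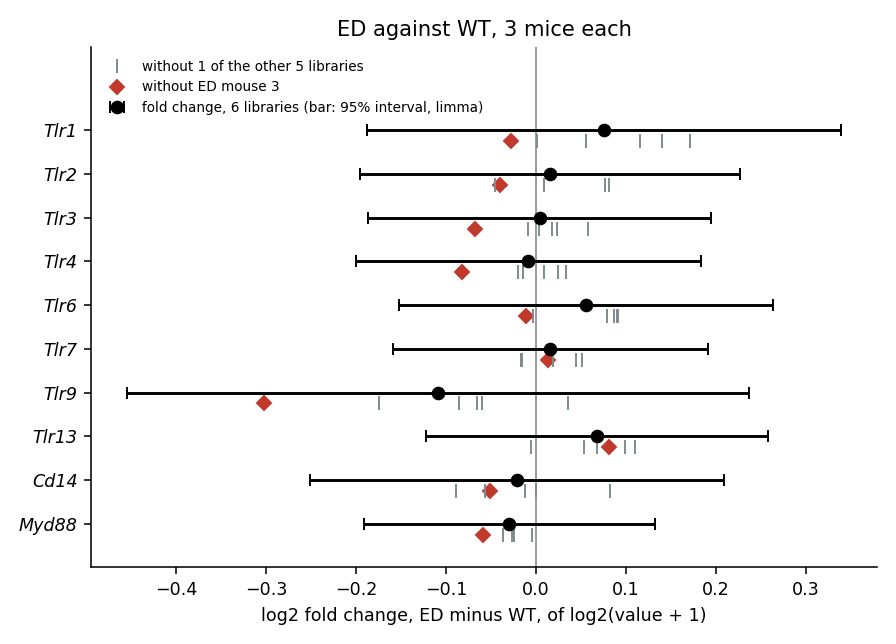
Fitted log2 fold change of ED over WT for each of the 10 genes on the log2(value + 1) scale, with black points and bars for the estimates and limma 95% confidence intervals over 6 libraries (3 mice per genotype), red diamonds for the estimate without ED mouse 3 and grey ticks for the estimates without each of the other 5 libraries. Every interval includes 0, the interval of Tlr9 is the widest, and without ED mouse 3 its estimate lies at −0.30.

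PU.1 is the transcription factor that defines the myeloid lineage. Promoters of Tlr9, Tlr1 and Tlr13 are shown because each holds the core it recognises, in front of receptors that differ in place and ligand. They are the parts of the 250 bases before the RefSeq start (GRCm38.p6) that lie outside the GENCODE gene, and they read from 5′ to 3′ on the strand of the gene. Capitals mark GAGGAA and, in Tlr9, also TGACTCA, which matches the AP-1 motif. The windows are chr9:106222348-106222597 on the plus strand for Tlr9, chr5:64933564-64933808 on the minus strand for Tlr1 and chrX:106143025-106143203 on the plus strand for Tlr13.
Tlr9: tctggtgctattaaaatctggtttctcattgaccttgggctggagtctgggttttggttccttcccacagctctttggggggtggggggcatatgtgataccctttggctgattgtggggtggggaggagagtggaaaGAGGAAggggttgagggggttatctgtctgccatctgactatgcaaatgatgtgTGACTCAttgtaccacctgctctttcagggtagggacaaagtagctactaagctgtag
Tlr1: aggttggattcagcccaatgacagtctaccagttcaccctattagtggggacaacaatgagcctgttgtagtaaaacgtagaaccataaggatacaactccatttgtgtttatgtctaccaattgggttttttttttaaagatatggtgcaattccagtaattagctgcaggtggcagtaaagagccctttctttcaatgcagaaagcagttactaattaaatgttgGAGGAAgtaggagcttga
Tlr13: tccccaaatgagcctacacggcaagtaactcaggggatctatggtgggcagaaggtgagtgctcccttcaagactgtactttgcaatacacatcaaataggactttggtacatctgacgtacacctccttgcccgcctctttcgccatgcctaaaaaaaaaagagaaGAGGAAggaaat

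GAGGAA began 112 bases before the RefSeq start in Tlr9, 23 bases before it in Tlr1 and 83 bases before it in Tlr13. Motifs were searched in 9 RefSeq promoters of 7 of the 10 genes (Tlr1, Tlr2, Tlr3, Tlr6, Tlr9, Tlr13 and Myd88). No promoter of Tlr4, Tlr7 or Cd14 was used here, which does not show that RefSeq lacks one. Tlr1 and Tlr6 each had a second promoter. On either strand, GAGGAA was found in 3 of these 9, against 23.3% of 32851 promoters of the same length. The second promoter of Tlr1, at chr5:64932700-64932949 and not printed here, did not hold it. An NF-kB motif, GGGA and CC with any 4 bases between them, was found in the promoters of Tlr2 and Tlr3 and in 17.6% of all promoters. The core of the interferon-stimulated response element is GAAA and GAAA with any 2 bases between them. It was found in a RefSeq promoter of Tlr6, as 2 matches that overlap, and in that of Myd88, against 2.98% of all promoters. In Tlr6 the matches lay in the promoter at chr5:64959167-64959416, and the other, at chr5:64960049-64960298, had none. The window of Tlr6 with the matches and the windows of Myd88 and Tlr3 lay inside the GENCODE spans of their own genes. The AP-1 motif TGANTCA was found only in Tlr9 among the 9, and in 6.75% of all promoters. A match of letters is not evidence of binding.

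All 10 genes had a normalized value of 1172 or more in every library. Cd14 had the highest level per kilobase of exon and Tlr6 the lowest of the 10, with a ratio of 17.1 between their means over the 6 libraries. Cd14 averaged 5903 ± 223 per kilobase in ED and 6021 ± 779 in WT microglia (SD, n = 3 each). Tlr7 came next at 1551 ± 73.6 in ED and 1534 ± 63.2 in WT, followed by Tlr2 at 1393 ± 112 in ED and 1379 ± 122 in WT. Tlr9 averaged 1258 ± 316 per kilobase in ED and 1332 ± 105 in WT, and Tlr13 averaged 1179.8 ± 22.8 in ED and 1129 ± 97.1 in WT. Within this order the ranges of the 6 libraries overlapped between the neighbours Tlr7 and Tlr2, Tlr2 and Tlr9, and Tlr9 and Tlr13, so these levels were not set apart.

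Below them stood Myd88, at 857 ± 33.1 per kilobase in ED and 874 ± 7.05 in WT microglia. Tlr1 averaged 579.9 ± 75.4 in ED and 549.96 ± 67.9 in WT, and Tlr3 averaged 446 ± 40.9 in ED and 444 ± 8.43 in WT. Tlr4 averaged 362 ± 33.2 in ED and 364 ± 7.83 in WT, and Tlr6 averaged 355 ± 28.8 in ED and 342 ± 23.9 in WT. The ranges of Tlr4 and Tlr6 overlapped, whereas Cd14, Myd88, Tlr1 and Tlr3 held the same rank in each of the 6 libraries. Receptors for nucleic acids thus filled 3 of the 4 highest ranks among the 8 receptors, with the lipoprotein receptor Tlr2 between them. Of the other receptors of the family, Tlr12 averaged 474 per kilobase in ED and 508 in WT and Tlr5 187 in ED and 178 in WT, while Tlr11 stood at 6.65 in ED and 7.38 in WT. The lengths used here are those of all annotated exons, which may exceed the transcript in use.

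**Figure D2:**
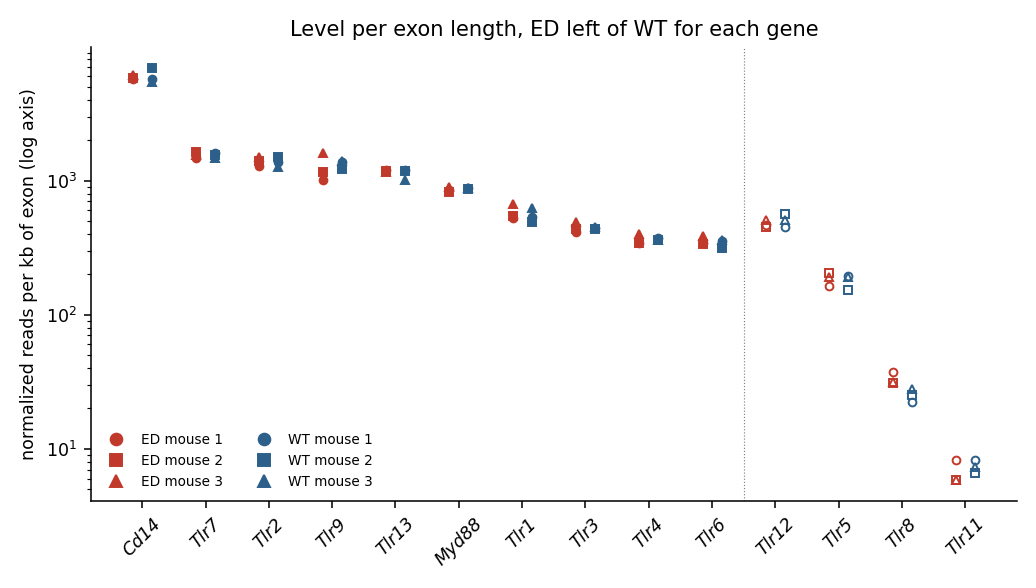
Deposited normalized value per kilobase of exon for each gene on a log axis, with 1 symbol per library and ED drawn left of WT, and other members of the receptor family as open symbols right of the dotted line. Cd14 lies at 5452 or above in every library, and Tlr4 and Tlr6 lie at 401 or below.

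Among the receptors of the cell surface, Tlr2 is the shared partner of lipoprotein recognition. Its gene lies at chr3:83836272-83841767 (GRCm38, minus strand). Normalized values of Tlr2 were 3848, 4228 and 4519 in ED mice 1 to 3, against 4113, 4543 and 3813 in WT mice 1 to 3. The genotypes overlapped throughout, with the highest and the lowest value both in WT. Its fitted change of ED over WT was 0.015 ± 0.094 on the log2 scale (SE), and the 95% interval ran from −12.7% to 17.0%.

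Tlr1 and Tlr6 encode the partners with which TLR2 binds triacylated and diacylated lipopeptides. They are neighbours on the minus strand, at chr5:64924679-64933563 for Tlr1 and chr5:64952031-64960097 for Tlr6, and as close paralogs they may share reads. Values of Tlr1 were 1767, 1825 and 2229.7 in ED mice, against 1779, 1649.8 and 2091 in WT mice. Tlr6 had 1266, 1259 and 1448 in ED mice, against 1313, 1172 and 1337 in WT mice. Both genes were highest in ED mouse 3 and lowest in WT mouse 2. On the log2 scale ED over WT was 0.076 ± 0.12 (SE) for Tlr1, an interval of −12.2% to 26.5%, and 0.055 ± 0.093 for Tlr6, an interval of −10.0% to 20.02%.

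Tlr4, the receptor for lipopolysaccharide, lies at chr4:66827584-66930284 on the plus strand. Its values were 1896, 1918 and 2226 in ED mice, against 2069.7, 2002 and 1988 in WT mice. The WT values fell inside the range of the ED values, and the ED mean of 2013 ± 184 stood beside a WT mean of 2020.2 ± 43.5 (SD, n = 3 each). ED over WT was −0.0085 ± 0.085 on the log2 scale (SE), an interval of −13.0% to 13.5%.

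Cd14 encodes the protein that hands lipopolysaccharide to TLR4 and MD-2 and also serves TLR2 and endosomal receptors. It lies at chr18:36725067-36726798 on the minus strand. Its values were 9925, 10089 and 10659.7 in ED mice, against 9875, 11966 and 9442 in WT mice. The ED values lay within the WT range, whose upper end was WT mouse 2. ED over WT was −0.021 ± 0.10 on the log2 scale (SE), an interval of −16.0% to 15.6%.

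**Figure D3:**
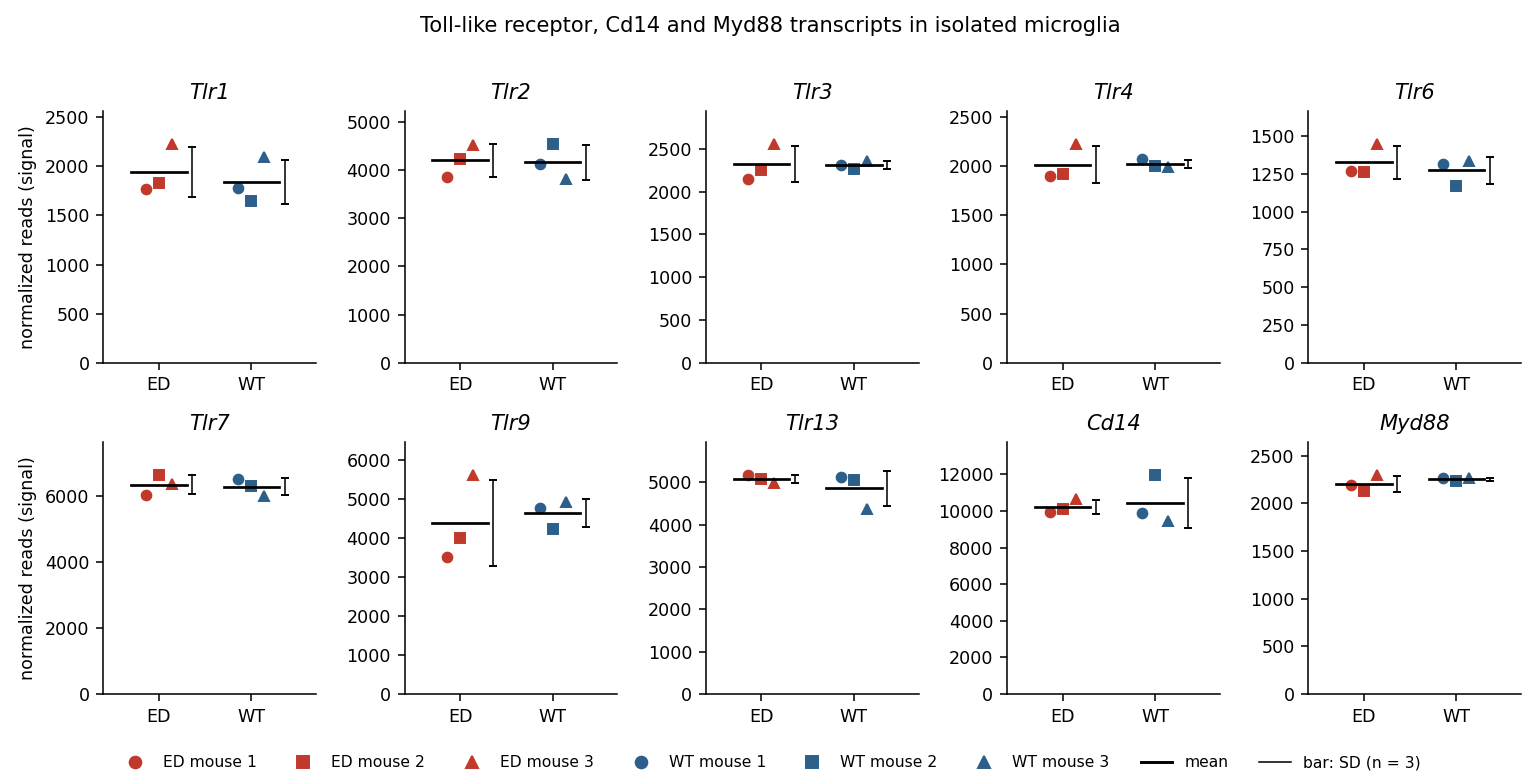
Deposited normalized values of the 10 genes in each library, with ED mice left of WT mice, a horizontal line for the mean and a vertical bar for the SD of 3 mice; every axis starts at 0. Values of the genotypes overlap in every panel, and ED mouse 3 of Tlr9, at 5611, lies highest above its own group.

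In the endosome, TLR9 binds DNA with unmethylated CpG motifs, and its gene lies at chr9:106222598-106226883 on the plus strand, just beyond the promoter printed above. Values of Tlr9 were 3508, 4004 and 5611 in ED mice, against 4771, 4221 and 4908 in WT mice. The ED mice held both the lowest and the highest value. The highest ED value was 1.60 times the lowest, against 1.16 times in WT, and the coefficient of variation was 25.1% in ED and 7.85% in WT. With this spread the mean was 4374 ± 1099 in ED and 4633 ± 364 in WT (SD, n = 3 each). The log2 fold change was −0.11 ± 0.15 (SE), and the interval of −27.0% to 17.9% was the widest of the 10.

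Leaving out ED mouse 3 moved the log2 fold change of Tlr9 to −0.30 ± 0.10 (SE), with an unadjusted p of 0.0183 and an adjusted p of 1.00 (limma). Leaving out ED mouse 1, the lowest of the 6 libraries, turned its sign, to 0.036. Over the other alternatives the log2 fold change of Tlr9 lay between −0.17 and −0.060. Both the size and the sign of this difference therefore depended on single ED mice.

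TLR7 binds single-stranded RNA and TLR13, which mice have and humans lack, binds bacterial ribosomal RNA. Tlr7 lies at chrX:167304929-167330558 on the minus strand and Tlr13 at chrX:106143204-106160493 on the plus strand. Values of Tlr7 were 6023, 6623 and 6352 in ED mice, against 6508, 6285 and 5994 in WT mice. Tlr13 had 5176, 5078 and 4979.8 in ED mice, against 5137, 5058 and 4377 in WT mice. In both genes WT mouse 3 was lowest, and the remaining WT values stood among those of the ED mice. Tlr7 had a log2 fold change of 0.016 ± 0.078 (SE), an interval of −10.5% to 14.1%, and Tlr13 one of 0.068 ± 0.085, an interval of −8.13% to 19.5%.

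Tlr3, the receptor for double-stranded RNA, lies at chr8:45395665-45411080 on the minus strand. Its values were 2152, 2256 and 2561 in ED mice, against 2309, 2268 and 2355 in WT mice. As for Tlr4 and Tlr9, the ED mice spanned the WT mice. On the log2 scale ED over WT was 0.0041 ± 0.085 (SE), an interval of −12.1% to 14.5%. The span of the gene model Gm45542 overlaps exons of Tlr3, and reads of the overlap may not be told apart.

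Myd88 lies at chr9:119335934-119341411 on the minus strand, with exons overlapped by the spans of Slc22a14 and Acaa1a. Its values were 2191, 2132 and 2299.9 in ED mice, against 2263, 2231 and 2262 in WT mice. The WT mice lay between ED mouse 1 and ED mouse 3. This adaptor had the narrowest interval of the 10, −12.4% to 9.60%, around a log2 fold change of −0.030 ± 0.072 (SE). Exact two-sided permutation tests gave p between 0.4, for Myd88, and 1.0 over the 10 genes, where 3 against 3 mice allow no p below 0.1. Each of the 10 intervals covered at least −8.13% to 9.60%, so changes within those bounds were not excluded for any of the 10 genes. For single genes larger changes were not excluded either, as for Tlr9, with an interval of −27.0% to 17.9%.

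While no gene passed the test between genotypes, single libraries stood out. ED mouse 3 had the highest value of all 6 libraries in 6 of the 10 genes (Tlr1, Tlr3, Tlr4, Tlr6, Tlr9 and Myd88), and it had the highest value in 16.5% of all genes. WT mouse 2 was highest for Tlr2 and Cd14, ED mouse 2 for Tlr7 and ED mouse 1 for Tlr13. The mean log2 value of the 10 genes was 11.60, 11.66 and 11.81 in ED mice 1 to 3, against 11.70, 11.68 and 11.67 in WT mice 1 to 3. The ED mice lay on both sides of the WT mice, which stood close together. The 10 genes held 0.145% to 0.167% of the summed values in ED and 0.151% to 0.154% in WT.

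**Figure D4:**
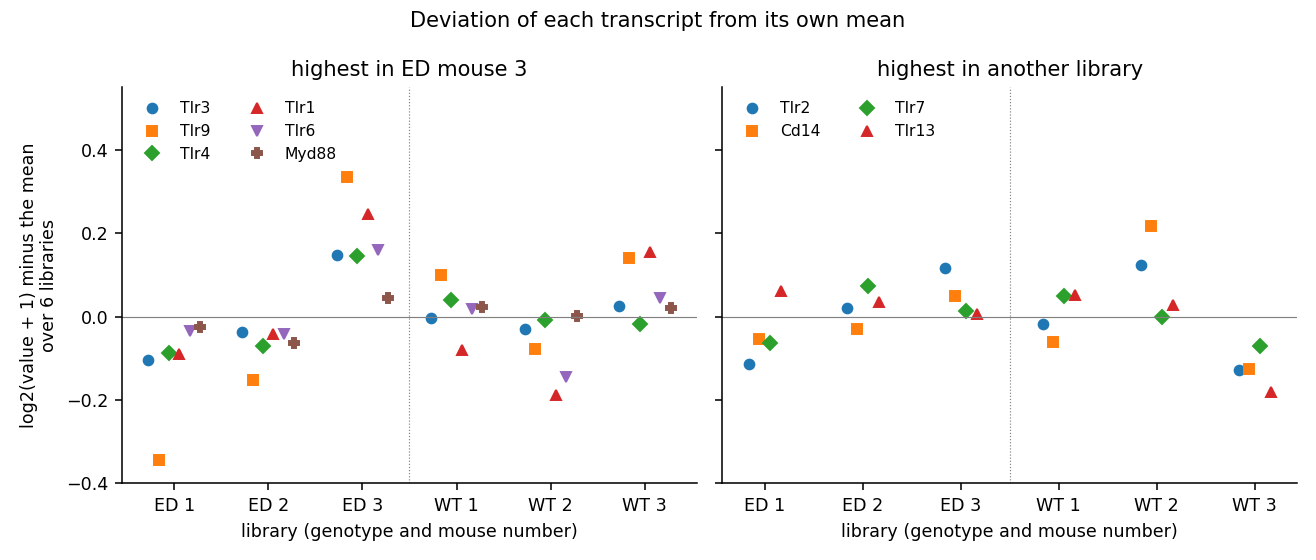
Deviation of each gene's log2(value + 1) from its own mean over the 6 libraries, by library, with ED mice left of WT mice and the 6 genes that are highest in ED mouse 3 in a panel of their own. ED mouse 3 has the highest point for 6 of the 10 genes, reaching 0.33 for Tlr9, and ED mouse 1 has the lowest for Tlr9, at −0.34.

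Means over the surface and over the endosomal receptors were compared across the mice. The mean log2 value of Tlr1, Tlr2, Tlr4 and Tlr6 was 10.97, 11.02 and 11.22 in ED, against 11.05, 11.001 and 11.07 in WT. That of Tlr3, Tlr7, Tlr9 and Tlr13 was 11.94, 12.03 and 12.17 in ED, against 12.10, 12.03 and 12.03 in WT. Both means were highest in ED mouse 3 and lowest in ED mouse 1, an order that only Tlr3, Tlr4 and Tlr9 of the 8 receptors showed by themselves. The difference of endosomal minus surface receptors stayed between 0.95 and 1.01 in ED and between 0.96 and 1.05 in WT. Since these means add log2 values of genes of unequal length, the difference compares libraries and not the abundance of the receptor classes.

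Of the 45 pairs among the 10 genes, 31 had a positive and 14 a negative Pearson's r over the 6 libraries, with a median of 0.35, and 8 had an r above 0.8. For Tlr3 and Tlr9, both sensors of nucleic acid, r was 0.95 (exact permutation p = 0.00417, adjusted over 45 pairs 0.125) and Spearman's rho was 1.00 (exact permutation p = 0.00278, adjusted 0.125). Without the 2 libraries farthest from the median of Tlr3, r was 0.95. Tlr1 and Tlr6, which may share reads, had an r of 0.92 (exact permutation p = 0.00556, adjusted 0.125) and a rho of 0.83 (exact permutation p = 0.0583, adjusted 0.328), and r was 0.82 without the 2 farthest libraries. Tlr2 and Cd14, partners at the cell surface, had an r of 0.84 (exact permutation p = 0.00833, adjusted 0.125) and a rho of 0.94 (exact permutation p = 0.0167, adjusted 0.3), and r was 0.86 without the 2 farthest. Pairs of unlike class were also high, with an r of 0.92 (exact permutation p = 0.0139, adjusted 0.15) and a rho of 0.83 (exact permutation p = 0.0583, adjusted 0.328) for Tlr3 and Tlr4, where r was 0.42 without the 2 farthest libraries. Tlr4 and Tlr9 had an r of 0.90 (exact permutation p = 0.0167, adjusted 0.15) and a rho of 0.83 (exact permutation p = 0.0583, adjusted 0.328), and r was 0.68 without the 2 farthest. The remaining pairs above 0.8 were Tlr4 and Myd88 (r 0.83, exact permutation p = 0.0458), Tlr1 and Tlr3 (r 0.82, exact permutation p = 0.0389) and Tlr9 and Myd88 (r 0.82, exact permutation p = 0.05). Each had an adjusted p of 0.281, and without the 2 farthest libraries r was 0.85, −0.082 and 0.87. Other pairs with a shared function were not high: r was −0.039 and rho −0.20 for Tlr1 and Tlr2 (exact permutation p = 0.949 and 0.714), and r was −0.044 and rho −0.37 for Tlr2 and Tlr6 (exact permutation p = 0.939 and 0.497). Likewise r was 0.24 and rho 0.26 for Tlr4 and Cd14 (exact permutation p = 0.617 and 0.658), and r was 0.14 and rho −0.086 for Tlr7 and Tlr9 (exact permutation p = 0.753 and 0.919). No pair passed 0.05 after adjustment over the 45 pairs. Taken as deviations from the genotype means, r was 0.99 for Tlr3 and Tlr9, 0.91 for Tlr1 and Tlr6 and 0.86 for Tlr2 and Cd14.

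Markers of other cells and states also differed between these libraries. The mean log2 value of 9 markers of monocytes and neutrophils was 6.05, 5.25 and 7.83 in ED mice 1 to 3, against 6.33, 7.20 and 5.32 in WT mice 1 to 3, with summed values of 683 to 3579 in ED and 769.8 to 2338 in WT. It was therefore highest in ED mouse 3, where 6 of the 10 genes peaked, and next in WT mouse 2, where Tlr2 and Cd14 peaked (26.2% of all genes did) but Tlr1 and Tlr6 were lowest (27.7% of all genes were). S100a9, a calcium-binding protein of neutrophils, had 169, 73.1 and 1059 in ED mice, against 266, 523 and 120.4 in WT mice. Ccr2, from the same list, did not peak in ED mouse 3. It had 445, 387 and 428 in ED mice, against 407, 476 and 372 in WT mice. The mean log2 value of 10 early-response genes that enzymatic dissociation is known to induce was 13.07, 13.53 and 13.67 in ED, against 13.58, 13.76 and 13.45 in WT, lowest in ED mouse 1. By fold change 8 of these genes were lower in ED and 2, Hspa1a and Hspa1b, were higher. Hspa1a and Hspa1b were highest in ED mouse 3 and lowest in WT mouse 2. Defining markers of microglia summed to 914889 to 987086 in ED and 913538 to 1091610 in WT. Neuron markers, a list chosen with earlier results of these data known, were lower in ED for 7 of 7 genes. They summed to 1985 to 2549.6 in ED and 2856 to 2992 in WT. Of these genes 5 had an unadjusted p under 0.05 (limma) and 0 passed after adjustment. Over all genes 1.22% were lower in ED at that unadjusted p. Summed markers of border macrophages were 11072 to 13658 in ED and 10065 to 12338 in WT, those of endothelium 2569.7 to 3228 in ED and 2578 to 4938 in WT, those of astrocytes 7762 to 8470.2 in ED and 7374 to 8906 in WT, and those of oligodendrocytes 8901 to 10988 in ED and 9587 to 12919 in WT. Of 4 B cell markers only Cd79b was in the table, at 498 to 578 in ED and 476 to 662 in WT, and of 4 T and NK cell markers 0 were. WT mouse 2 also had the highest mean log2 value for several other marker sets. These were endothelium (9.76, against 8.58 to 8.90 in the other libraries), microglia (16.60, against 16.38 to 16.51), neurons (8.51) and the early-response genes (13.76, against 13.07 to 13.67). For neurons WT mice 1 and 3 stood close by, at 8.50 and 8.49. The part of all these markers in the values of the receptors was not tested. In bulk RNA, fewer cells of a type and less RNA per cell cannot be told apart.

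The other genes of the pathway were read from lists of gene names, 72 genes in all, of which 0 passed the adjusted threshold and 1, Tlr8, had an unadjusted p under 0.05. The named ones are those with the smallest p and the highest mean in each list. None of them passed the test, so their values are descriptions.

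Of the 5 other family members, 2 were higher and 3 lower in ED, with a median log2 fold change of −0.050. Tlr8, an endosomal receptor next to Tlr7 at chrX:167242696-167264329, averaged only 33.2 per kilobase in ED and 25.1 in WT and had normalized values of 134, 111 and 112 in ED mice, against 80.7, 90.1 and 99.6 in WT mice. Every ED value lay above every WT value, one of the 370 genes (2.32%) with this order. Its log2 fold change was 0.40 ± 0.17 (SE, unadjusted p = 0.0418, adjusted p = 1.00, limma), and the exact permutation p was 0.1, the smallest possible with 3 against 3 mice. The unadjusted p was 0.0611 with mouse number as a block and ranged between 0.035 and 0.143 when each library was left out. Tlr12, a receptor for profilin in mice, had 1472, 1442 and 1602 in ED mice, against 1435, 1802 and 1602 in WT mice. Cd180, which restrains TLR4 signalling, averaged 7470.5 ± 701 in ED and 7751 ± 919.8 in WT (SD, n = 3 each).

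Among the 12 co-receptors and ligand-handling genes, 6 were higher and 6 lower in ED, with a median log2 fold change of 0.00. Pld3, a nuclease of the endosome that degrades ligands of TLR9, averaged 6386 ± 254 in ED and 6855 ± 737 in WT. Pld4, a nuclease of the same family, averaged 26039 ± 242 in ED and 25840.1 ± 1917 in WT. Lgmn, a lysosomal protease that cuts TLR9, averaged 120938 ± 4022 in ED and 124349 ± 18469 in WT. Cd36, a scavenger receptor that works with TLR2, averaged 588 ± 139 in ED and 543 ± 39.1 in WT. All of these differences were smaller than the SD of at least 1 genotype.

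Among the 9 folding and trafficking genes, 4 were higher and 5 lower, with a median of −0.023. Unc93b1, the chaperone that carries nucleic acid receptors to endosomes, averaged 45816 ± 848 in ED and 44312 ± 1952 in WT. Hsp90b1, which folds most Toll-like receptors in the endoplasmic reticulum, averaged 26781 ± 1289.6 in ED and 26401 ± 2247 in WT. Ap3b1, a subunit of the sorting complex AP-3, averaged 2575 ± 69.7 in ED and 2649 ± 106 in WT, and Atp6ap2, an accessory protein of the proton pump, averaged 4060.4 ± 172 in ED and 4323 ± 591 in WT.

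Of the 18 adaptors and proximal kinases, 12 were higher and 6 lower in ED, with a median of 0.014. Tab1, which activates the kinase TAK1, averaged 805 ± 56.4 in ED and 729 ± 43.0 in WT. Tab2, a further partner of TAK1, averaged 7204 ± 133 in ED and 7211 ± 392.2 in WT. Irak2, a kinase of the MyD88 complex, averaged 3768 ± 152 in ED and 3565 ± 97.2 in WT. Pik3ap1, an adaptor that links Toll-like receptors to phosphoinositide 3-kinase, had 5683, 6336 and 7546 in ED mice, against 6782, 6656 and 6792 in WT mice. Its spread in ED resembled that of Tlr9 in order, lowest in ED mouse 1 and highest in ED mouse 3.

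Of 13 downstream kinases and transcription factors, 8 were higher and 5 lower in ED, with a median of 0.014. Irf3, which acts after TRIF, averaged 2931 ± 111 in ED and 2579.7 ± 425 in WT, a log2 fold change of 0.20 with an unadjusted p of 0.112 (limma). Jun, a subunit of AP-1 and also an early-response gene, averaged 41371 ± 10208 in ED and 50486 ± 7678 in WT, a log2 fold change of −0.31 with an unadjusted p of 0.145 (limma). Irf8, which with PU.1 sets microglial identity, averaged 19763 ± 122 in ED and 20405 ± 1534 in WT.

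Of 15 measured targets that Toll-like receptors induce, 8 were higher and 7 lower in ED, with a median of 0.0055. Cxcl2, a chemokine for neutrophils, averaged 235 ± 33.9 in ED and 185 ± 25.4 in WT, a log2 fold change of 0.34 with an unadjusted p of 0.0582 (limma). Cd40, a co-stimulatory receptor near the floor of the table, averaged 36.0 ± 6.33 in ED and 25.1 ± 1.34 in WT without overlap, a log2 fold change of 0.49 with an unadjusted p of 0.0816 (limma). Nfkbia, the inhibitor of NF-kB, averaged 5770.1 ± 984 in ED and 6055 ± 736 in WT. Il1a, a cytokine of the interleukin-1 family, averaged 4559 ± 623 in ED and 4819.8 ± 417 in WT.

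**Figure D5:**
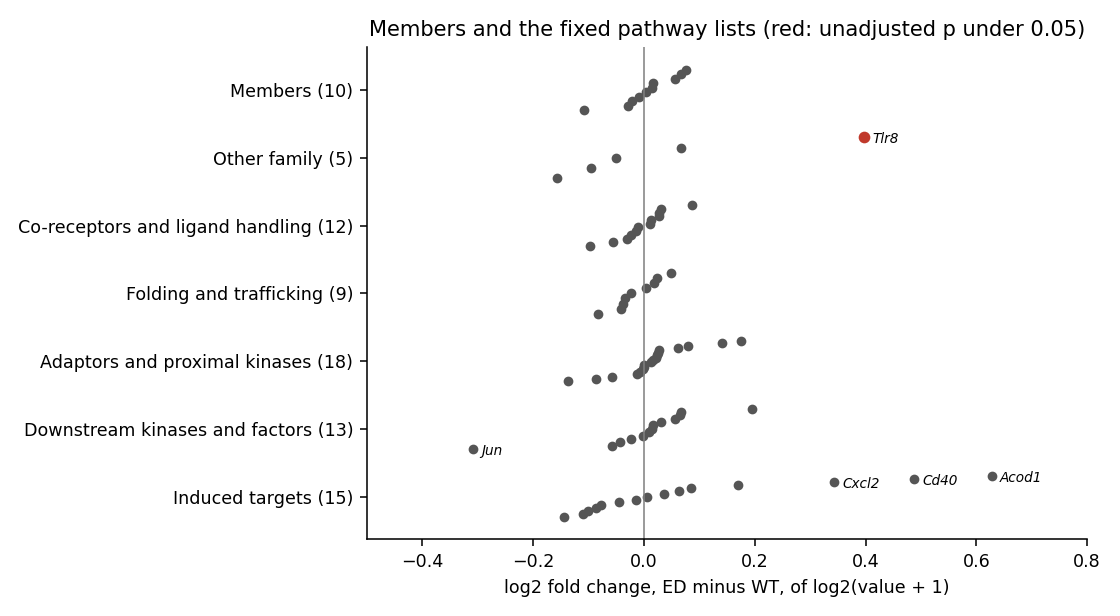
Fitted log2 fold change of ED over WT for each measured gene of the 10 members and of the 6 pathway lists, with 1 point per gene, offset vertically only for legibility, and the number of genes in parentheses. List medians lie between −0.050 and 0.014, and Tlr8 (red) is the only point with an unadjusted p under 0.05. No point passed the adjusted threshold, and the outlying point of Acod1 rests on 1 library, ED mouse 3, at 42.8 (4.69 and 6.01 in the other ED mice, against 6.45, 8.81 and 5.47 in WT mice).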

How the data were processed

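Normalized signal values for 15954 genes in 6 libraries, with 3 mice per genotype, were deposited by the authors in 1 table. These deposited signal values behave as reads per gene scaled by a single factor in each library. For trimming, alignment and counting the notes of the submitters list Trimmomatic 0.36, STAR 2.5.2b and Subread 1.5.2 (featureCounts), with DESeq2 and build GRCm38. The sources used here do not give whether counting used strand, and the alignment in the study's methods, which also cover the RNA of these mice, is to a human build. Size factor scaling sets the libraries on 1 depth, so a change of all genes together would not be seen. The table also held fold changes and p-values of the authors' own comparison, which were not used.

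Genotype and mouse number came from the sample titles. Summed values were 25635077 to 26071573 in ED and 25616871 to 26858913 in WT libraries. The lowest gene mean in the table was 9.87, and 8 of 147 listed gene names had no row under that name and were not analysed here.

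A pseudocount of 1 was added before log2 transformation, no gene was filtered out, and fold changes are on that scale. ED was compared with WT by limma 3.58.1 in R 4.3.3 (genotype only, with a mean-variance trend and without robust estimation), with Benjamini-Hochberg adjustment over all genes at 0.05. Exact permutation tests and correlations used scipy 1.17.1 in Python 3.11.15. The fit was tested on simulated data with known changes. There 1 setting of spread served all genes, so it does not measure the power for these data. Count models were not run, since reads could not be recovered with certainty from the ED values. Levels per kilobase used exon lengths of GENCODE M21, which held 15917 of the gene identifiers, and promoters came from RefSeq.

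The 10 genes, the pathway lists and the marker lists were chosen with earlier results of these data known. Named genes were the 10 members and, from each list, genes that passed or else the 2 with the smallest p and the 2 with the highest mean. S100a9, Ccr2, Hspa1a, Hspa1b and Acod1, which makes itaconate in activated macrophages, were chosen after their values were seen. Alternatives were another pseudocount (0.5 and 10), a minimum mean of 50, TMM and upper-quartile scaling, no trend, mouse number as a block and leaving out each library.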

Additional observations from a re-analysis of the deposited data

How the results depend on the processing

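Under 13 alternatives no gene of the table, of the pathway lists or of the 10 members passed the adjusted threshold. Of 130 member values under these alternatives, 15 changed sign, all of them when a library was left out, and Myd88 alone never did. Leaving out each library gave log2 fold changes of −0.028 to 0.17 for Tlr1, −0.045 to 0.081 for Tlr2, −0.068 to 0.057 for Tlr3, −0.083 to 0.033 for Tlr4, −0.011 to 0.091 for Tlr6, −0.017 to 0.051 for Tlr7, −0.30 to 0.036 for Tlr9, −0.0056 to 0.11 for Tlr13, −0.089 to 0.082 for Cd14 and −0.060 to −0.0048 for Myd88. The number of members without overlap between genotypes was 0 with all libraries and 0 to 4 when each was left out. It was 4 without ED mouse 3 (Tlr3, Tlr4, Tlr9 and Myd88, all lower, beside 14.1% of all genes) and 1 without WT mouse 2 (Cd14, higher, beside 14.4%).

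The count of all genes with an unadjusted p under 0.05 was 290 with all libraries, 498 without the trend, 180 of 12377 genes with a mean of at least 50, and 216 to 912 when each library was left out, highest without WT mouse 3. The cause of these shifts was not tested. With mouse number as a replicate block it was 403, and the median log2 fold change of the members was 0.0096 with 0 calls. Deviations of same-numbered mice correlated at −0.25, 0.053 and 0.35, so no pairing by number was seen. With 3 mice per genotype these values cannot exclude one. Refits with edgeR and DESeq2 had been planned and were not run. Precision was limited by the 3 mice per genotype.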

Other observations

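The gene whose profile over the 6 libraries was most like the mean of the 10 members was Mboat7, with a Pearson's r of 0.996 among 10974 genes with a mean of at least 100. Sp2 (0.993), Adar (0.985), Zxdc (0.982) and Ampd3 (0.981) followed, and 86 genes (0.784%) had an r above 0.9, which is a description of 6 libraries that share their depth scaling and not a test. Adar, an editor of double-stranded RNA, had 1805, 1924 and 2472 in ED mice, against 2069, 2067 and 2075 in WT mice. Its WT values lay close together and its ED values on both sides of them.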
